A study of Mus musculus with 116 samples.

Results

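The genes described here mark the subpallium and the GABAergic interneurons that arise from it. They are the homeobox genes *Dlx1*, *Dlx2*, *Dlx5* and *Dlx6*, the patterning genes *Gsx2* and *Nkx2-1*, the interneuron gene *Lhx6*, and *Gad1* and *Gad2*, the genes of the enzymes that make GABA. These 9 of the 53379 gene identifiers in the tables were chosen by name. They were followed in every library with at least 1000000 uniquely aligned reads that made up at least 60% of all reads, which left 92 of 116 libraries.

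The libraries were made by bulk Smart-Seq2 from cells of mouse neocortex that carry MADM-7, a pair of recombination cassettes on chromosome 7 that colors cells after Cre-driven exchange between the homologous chromosomes. *Emx1*-Cre, which is active in the progenitors of the cortical projection neuron lineage, drove recombination in all of them. In control-MADM every cell is *Eed*+/+, and in cKO-*Eed*-MADM every labeled cell of the *Emx1* lineage is *Eed*-/- whatever its color. In *Eed*-MADM the green cells are *Eed*-/-, the yellow cells *Eed*+/- and the red cells *Eed*+/+, all within a heterozygous tissue. *Eed* encodes a core subunit of PRC2, the complex that methylates lysine 27 of histone H3. Cells came from 3 embryonic ages, E12, E13 and E16 in the labels (E12.5 and so on here), and from newborns (P0), and each sample pooled the cortices of several animals. For the earliest age the sort went into lysis buffer and for all others into RNA extraction buffer, and this age and its buffer cannot be told apart. Of green cKO-*Eed*-MADM cells 4 libraries were used at each age. Control-MADM gave 5 green libraries at E12.5 and 5 at P0, with 2 at E13.5 and 3 at E16.5 between them, and *Eed*-MADM gave 8 at E12.5, 2 at E13.5, then 5 at E16.5 and 9 at P0. Green cells also carry both copies of chromosome 7 from the father and red cells both from the mother, and none of the 9 genes lies on chromosome 7.

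In the embryonic telencephalon the ventral part, the subpallium, makes GABAergic neurons, and the dorsal part, the pallium, makes the glutamatergic neurons of the cortex. *Gsx2* acts early in dividing cells of the ganglionic eminences, *Dlx1* and *Dlx2* act as these cells begin to differentiate, and *Dlx5* and *Dlx6* follow and are switched on by the former pair. *Nkx2-1* sets up the medial ganglionic eminence, and its target *Lhx6* marks the interneurons that leave it. *Gad1* and *Gad2* encode the large and small forms of glutamate decarboxylase and are expressed in GABAergic neurons generally, within the telencephalon or outside it. The *Dlx* genes lie in convergent pairs, and in many cell types that do not use them such homeobox loci carry the histone mark that PRC2 places. Around birth, progenitors of the *Emx1* lineage are also known to give rise to interneurons of the olfactory bulb.

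On GRCm38 (mm10), with coordinates from GENCODE M21, *Dlx1* lies at chr2:71528113-71533981 on the plus strand and *Dlx2* at chr2:71543408-71546754 on the minus strand. *Dlx6* lies at chr6:6863334-6868568 on the plus strand and *Dlx5* at chr6:6877805-6882085 on the minus strand. *Gsx2* lies at chr5:75075601-75077893 (plus strand) and *Nkx2-1* at chr12:56531958-56536908 (minus strand). *Lhx6* lies at chr2:36081953-36105408 (minus strand), *Gad1* at chr2:70553072-70602014 (plus strand) and *Gad2* at chr2:22622205-22693874 (plus strand). All 9 are annotated as protein-coding. The counts take no account of strand. *Dlx1* shares 335 of its 5396 exonic bases with its antisense gene *Dlx1as*, *Dlx6* shares 104 of 2375 with *Dlx6os2*, and *Lhx6* shares 104 of 4805 with *Gm27953*, so a small part of each gene cannot be told from its partner. *Dlx6os1* and *Gad1os* run through *Dlx6* and *Gad1* but share no exonic base with them.

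Sequence before the transcription start was found for 7 of the 9 genes in RefSeq promoters (GRCm38.p6), and not for *Dlx5* and *Dlx6*. The stretches of 250 bases before the start are shown for *Dlx2*, which had the highest level per length of the 9 in most groups, for *Gsx2*, and for *Nkx2-1* and *Lhx6*, which edgeR called in no comparison below at the filter used. These 4 stretches hold no exonic base of GENCODE M21. Each runs 5′ to 3′ on the strand of its gene, and capitals mark CG, the base pair step that carries DNA methylation and is dense in CpG islands.
*Dlx2*, chr2:71546755-71547004, minus strand: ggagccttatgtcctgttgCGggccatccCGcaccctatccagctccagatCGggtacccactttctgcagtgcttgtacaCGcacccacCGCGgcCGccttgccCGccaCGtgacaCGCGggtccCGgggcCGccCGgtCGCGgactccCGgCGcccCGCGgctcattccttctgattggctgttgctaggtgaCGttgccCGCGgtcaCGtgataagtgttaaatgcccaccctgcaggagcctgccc
*Gsx2*, chr5:75075351-75075600, plus strand: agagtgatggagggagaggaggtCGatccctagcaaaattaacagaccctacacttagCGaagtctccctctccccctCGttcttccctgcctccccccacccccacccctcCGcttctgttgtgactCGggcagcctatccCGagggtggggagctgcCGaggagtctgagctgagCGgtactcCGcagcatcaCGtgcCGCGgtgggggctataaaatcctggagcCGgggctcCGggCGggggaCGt
*Nkx2-1*, chr12:56536909-56537158, minus strand: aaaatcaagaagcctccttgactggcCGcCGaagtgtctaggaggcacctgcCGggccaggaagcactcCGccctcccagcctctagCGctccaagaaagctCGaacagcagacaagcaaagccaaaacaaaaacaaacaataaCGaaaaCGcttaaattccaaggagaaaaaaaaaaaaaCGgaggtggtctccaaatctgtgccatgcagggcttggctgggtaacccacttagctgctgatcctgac
*Lhx6*, chr2:36105409-36105658, minus strand: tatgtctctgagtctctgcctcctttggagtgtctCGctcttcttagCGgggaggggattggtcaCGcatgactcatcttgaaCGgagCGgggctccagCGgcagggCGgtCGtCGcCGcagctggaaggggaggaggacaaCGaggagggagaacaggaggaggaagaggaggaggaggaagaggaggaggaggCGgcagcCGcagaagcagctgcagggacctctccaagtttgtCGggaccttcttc

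The stretch of *Dlx2* holds 24 CG, a number that 11.98% of the 32851 promoters of the table reach over the same length, whose median is 6. The stretch of *Dlx1* holds 22 (reached by 14.8%), that of *Gad1* 17 (23.5%), that of *Gsx2* 16 (25.4%), that of the outermost *Lhx6* start 14 (29.4%), that of *Gad2* 13 (31.5%) and that of *Nkx2-1* 9 (40.3%). All 9 stretches of the 7 genes (*Lhx6* has 3 starts) lay above the median, also the other *Lhx6* starts with 17 and 7. Each stretch precedes a RefSeq start, which is not always the outermost start of GENCODE M21. The *Dlx1* stretch (chr2:71529195-71529444) lies inside the gene given above, and all its 250 bases are exonic in M21. The stretches of *Gad2*, *Gad1* and the *Lhx6* start with 17 CG hold 122, 87 and 14 exonic bases. CG reads the same on both strands and was counted wherever it occurs. TAATTA, a core that homeodomain proteins often bind and that also reads the same on both strands, occurs in none of the 9 stretches and in 4.84% of all promoters.

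Reads on genes ranged from 865832 to 2359317 per library at E12.5 and from 2784557 to 7249098 at the later time points. CPM below are reads per 1000000 on one TMM scale over all 92 libraries. *Eed* itself was lower in green cells of cKO-*Eed*-MADM than of control-MADM at E16.5 (log2 difference -1.10, SE 0.31, adjusted p = 0.0314) and at P0 (-1.32, SE 0.25, adjusted p = 0.000378). It was lower in value but not called at E12.5 (-1.34, SE 0.30, adjusted p = 0.282) and E13.5 (-1.64, SE 0.37, adjusted p = 0.0933). In green *Eed*-MADM against control-MADM cells it was called lower at P0 (-0.93, SE 0.20, adjusted p = 0.0132). It was not called there at earlier ages (E16.5: -1.22, SE 0.29, adjusted p = 0.0889). Reads on *Eed* remained, and green cKO-*Eed*-MADM libraries held 8.81 to 16.4 CPM of *Eed* at P0 against 25.7 to 34.1 in control-MADM. The counts cover the whole gene, so transcript of the deleted allele and reads from cells that keep *Eed* cannot be told apart. The library labelled as red cells of cKO-*Eed*-MADM at P0, replicate 1, stood apart from its group. It held 33.7 CPM of *Eed* against 5.55 in the other red library and 11.4 in the yellow library of its paradigm and age, and its 9 genes summed to 2348 CPM, the highest of all 92 libraries. It had reads on 13133 genes, the fewest of all 92 libraries, against 18385 in the other red library of its group. Yellow control-MADM replicate 2 of P0 was close to this number, with 13181. The part of such low numbers of detected genes in the values of a library was not tested. The *Eed* level of the cKO-*Eed*-MADM library that stood apart lies in the range of control-MADM and goes against its label. The label is therefore in doubt, and it is called the library labelled red replicate 1 below. Tests and correlations that use it are given with and without it.

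In green control-MADM cells the summed level of the 9 genes was lowest at E16.5 and highest at P0, although *Nkx2-1* and *Lhx6* had their highest mean at E12.5. At E12.5 the sum was 22.8 to 426 CPM. It was 41.8 to 87.4 CPM at E13.5, then 12.9 to 35.1 at E16.5, and 382 to 931 at P0. All libraries of P0 lay above those of E13.5 and E16.5, and those of E12.5 reached from the levels of E16.5 into the range of P0. In cKO-*Eed*-MADM the sum was 188 to 675 CPM at E12.5, 45.2 to 118 at E13.5, 281 to 546 at E16.5, and 184 to 271 at P0, so that its libraries lay above the other paradigms at E16.5 and below them at P0.

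**Figure D1:**
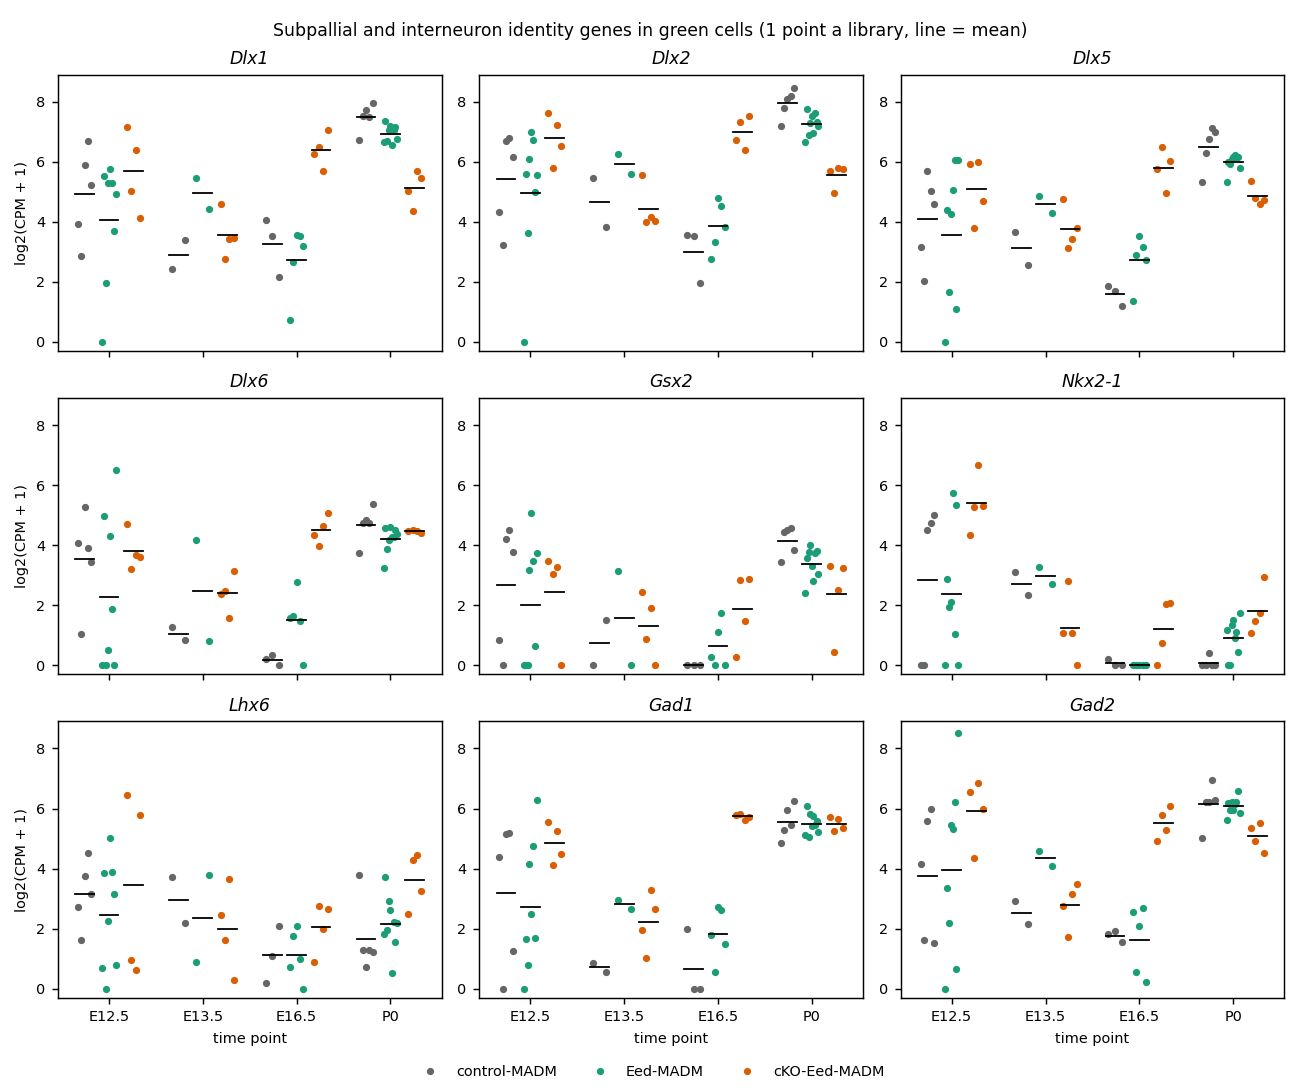
Level of each gene in every green library used, as log2(CPM + 1) on the vertical axis, by time point and paradigm; 1 point is 1 library and black lines are means. At E16.5 the points of cKO-*Eed*-MADM stand above those of the other paradigms for the 4 *Dlx* genes, *Gad1* and *Gad2*, and at P0 they stand below them for *Dlx1* and *Dlx2*.

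At E12.5 the members varied widely between libraries of a group and none was called different. *Dlx2*, for example, had 19.0, 8.30, 101, 110 and 69.7 CPM in green control-MADM cells and 195, 53.9, 149 and 90.1 in cKO-*Eed*-MADM. In *Eed*-MADM its 8 libraries went from 0 to 126 CPM with a median of 47.0. *Nkx2-1* was at 0 in 2 of 5 control-MADM libraries and at 21.6, 25.5 and 31.2 CPM in the others. The groups overlap for every member, and edgeR called none of the 18100 genes tested in cKO-*Eed*-MADM against control-MADM (0%), with 1292 at an unadjusted p under 0.05 and 6 called by DESeq2. It likewise called none in *Eed*-MADM against control-MADM (0%), with 689 at an unadjusted p under 0.05 and none by DESeq2, and none between the 2 mutant paradigms (0%), with 1307 at an unadjusted p under 0.05 and 1 called by DESeq2. Markers of other cells varied in the same libraries: the summed level of 8 red blood cell genes went from 5.58 to 16505 CPM in control-MADM and from 169 to 95160 in cKO-*Eed*-MADM, and that of 8 meningeal genes from 37.3 to 1373 and from 39.4 to 2480. Their part in the spread of the members was not tested. Yellow and red *Eed*-MADM cells gave no call for a member against green cells of the paradigm (0.00555% of the 18017 genes tested were called) or against control-MADM (0.00555%).

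At E13.5 no member was called either, with few libraries behind each group. *Gad1* had 0.827 and 0.465 CPM in green control-MADM cells, 6.74 and 5.32 in *Eed*-MADM, and 2.88, 1.04, 8.75 and 5.31 in cKO-*Eed*-MADM. Both control libraries lie below the other green ones, but the difference of cKO-*Eed*-MADM from control-MADM (log2 2.75, SE 1.21) did not pass the test (adjusted p = 0.445). *Dlx1* had 4.34 and 9.45 CPM in control-MADM, 42.8 and 20.7 in *Eed*-MADM, and 23.1, 5.80, 9.66 and 9.92 in cKO-*Eed*-MADM, so that both *Eed*-MADM libraries lay above both control libraries, with 1 cKO-*Eed*-MADM library between them (*Eed*-MADM against control-MADM 2.19, SE 0.72, adjusted p = 0.637). Of the 13448 genes tested, 0.0372% were called in cKO-*Eed*-MADM against control-MADM, 0.0223% against *Eed*-MADM, and none in *Eed*-MADM against control-MADM (0%), where 824 had an unadjusted p under 0.05 and DESeq2 called 40. In yellow and red cells, too, no member was called in cKO-*Eed*-MADM against control-MADM (1.49% of 13382 genes), nor in *Eed*-MADM against control-MADM (0% of all genes by edgeR, 426 at an unadjusted p under 0.05, 9 by DESeq2), nor between green and other *Eed*-MADM cells (0.0523%).

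At E16.5 the *Dlx* and *Gad* genes were higher in cKO-*Eed*-MADM. Of the 9 members, 7 passed the filter on low counts, and 6 of them were called higher in green cKO-*Eed*-MADM than in green control-MADM cells, while 8.58% of the 13359 genes tested were called in either direction and 6.16% were called higher. Genes near 0 in control-MADM passed the filter through the libraries in which they are high, so the count describes the members and tests nothing. *Dlx1* had 15.8, 10.4 and 3.51 CPM in control-MADM and 75.3, 89.2, 51.0 and 133 in cKO-*Eed*-MADM, a log2 difference of 3.14 (SE 0.58, adjusted p = 0.00134). Every cKO-*Eed*-MADM library lies above every control library.

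*Dlx2*, its convergent neighbour, had 10.8, 10.4 and 2.85 CPM in control-MADM and 105, 157, 82.1 and 183 in cKO-*Eed*-MADM (log2 difference 4.06, SE 0.51, adjusted p = 3.99e-05). The groups are far apart, the means differing 16.4 times. The pair that acts after them had lower levels in control-MADM and larger log2 differences in value. *Dlx5* had 2.66, 2.26 and 1.32 CPM in control-MADM and 53.1, 88.8, 29.8 and 63.6 in cKO-*Eed*-MADM (4.82, SE 0.56, adjusted p = 1.65e-05). *Dlx6* had 0.148, 0.282 and 0 CPM in control-MADM, a level of a few reads, and 19.4, 14.7, 23.9 and 32.3 in cKO-*Eed*-MADM (7.17, SE 1.11, adjusted p = 0.000268). In neither gene do the groups overlap.

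The enzymes of GABA synthesis followed the same order of groups. *Gad1* had 2.95, 0 and 0 CPM in control-MADM and 53.8, 55.7, 48.2 and 52.2 in cKO-*Eed*-MADM (5.48, SE 0.82, adjusted p = 0.000191). *Gad2* had 2.51, 2.82 and 1.97 CPM in control-MADM and 29.1, 54.3, 38.0 and 66.9 in cKO-*Eed*-MADM (4.29, SE 0.71, adjusted p = 0.000457). Again no library of either group reaches the range of the other. In bulk samples, more cells that read these genes and more RNA of them per cell cannot be told apart.

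The other 3 genes were not called or were too low to test. *Lhx6* had 0.148, 1.13 and 3.29 CPM in control-MADM and 0.843, 5.69, 2.94 and 5.28 in cKO-*Eed*-MADM, overlapping ranges that gave no call (1.32, SE 1.14, adjusted p = 0.589). *Gsx2* and *Nkx2-1* did not reach the mean count of 10 that the test asks for. *Gsx2* had no read in the 3 control libraries and 0.211, 6.21, 1.76 and 6.30 CPM in cKO-*Eed*-MADM, so it was at least 18.0-fold higher there when control-MADM is set to the 3 reads over the group that a count of 0 allows. *Nkx2-1* had 0.148, 0 and 0 CPM in control-MADM and 0, 0.690, 3.14 and 3.25 in cKO-*Eed*-MADM, with overlap at 0.

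Green *Eed*-MADM cells lack *Eed* as the cKO-*Eed*-MADM cells do, but sit in a heterozygous tissue, and at E16.5 no member was called between them and control-MADM (0.255% of genes were). That count of 0 became 1 with DESeq2, which called 231 of 13359 genes, and 1 without *Eed*-MADM green replicate 5. The low *Dlx6* was the exception in size, with 1.99, 2.15, 5.77, 1.77 and 0 CPM in *Eed*-MADM against at most 0.282 in control-MADM (log2 3.91, SE 1.10, adjusted p = 0.159). *Dlx5* had 1.55, 6.45, 10.4, 7.88 and 5.65 CPM, of which 4 of 5 libraries lie above all control libraries (1.61, SE 0.52, adjusted p = 0.241). *Dlx1* had 0.663, 5.26, 10.7, 10.6 and 8.20 CPM and *Gad2* 4.86, 0.478, 3.30, 5.52 and 0.182, ranges that contain or adjoin those of control-MADM.

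The 2 groups of green *Eed*-/- cells were also compared directly. The same 6 genes were called higher in cKO-*Eed*-MADM than in *Eed*-MADM (7.04% of genes called, 4.45% higher), by 3.61 for *Dlx1* (SE 0.49, adjusted p = 6.2e-05), 3.11 for *Dlx2* (SE 0.39), 3.21 for *Dlx5* (SE 0.41), 3.26 for *Dlx6* (SE 0.66), 4.06 for *Gad1* (SE 0.59) and 4.04 for *Gad2* (SE 0.56). In none of the 6 do the libraries of the 2 groups overlap. How many of all genes separate in this way was not counted, in this or any other comparison here, so it describes the members only. *Lhx6* was not called (1.33, SE 0.96, adjusted p = 0.511). *Nkx2-1* had no read in the 5 *Eed*-MADM libraries, so its 1.77 CPM in cKO-*Eed*-MADM are at least 14.9-fold more, though 1 of the 4 libraries had no read either. Both comparisons share the cKO-*Eed*-MADM libraries. All 6 calls against either group held in every alternative tried, among them each left-out library.

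**Figure D2:**
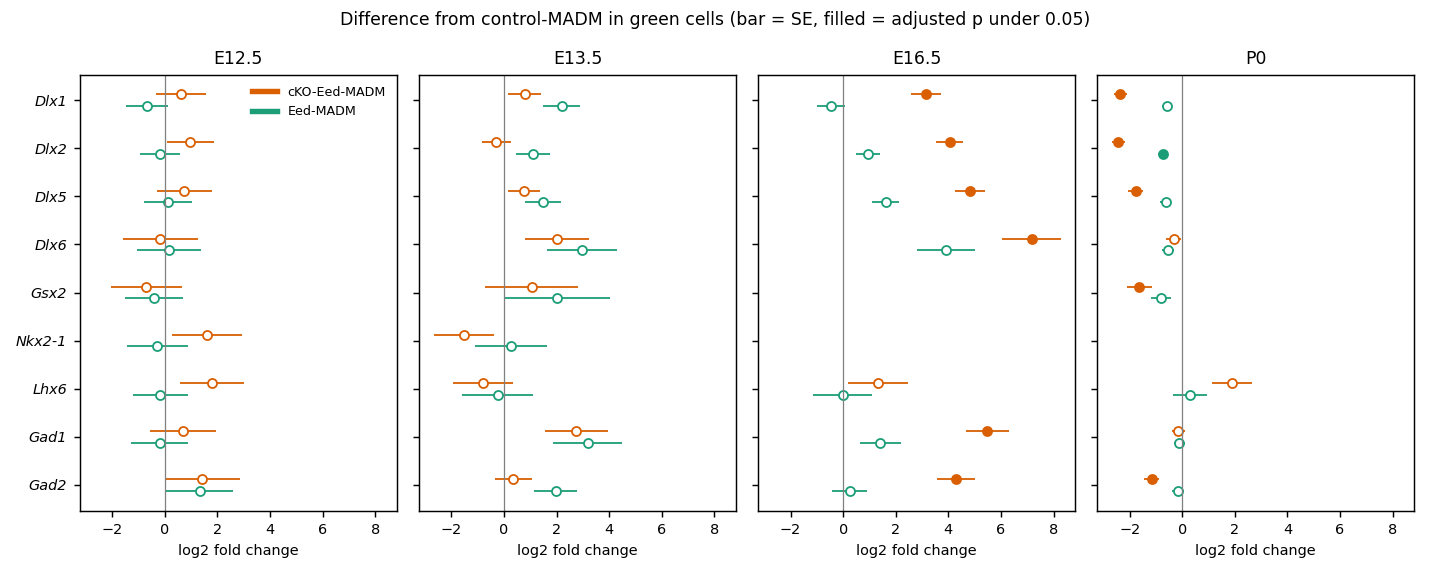
Log2 fold change (horizontal axis) of each gene in green cKO-*Eed*-MADM (orange) and *Eed*-MADM (teal) cells against green control-MADM cells at each time point; bars are SE, filled points have an adjusted p under 0.05, and a gene without a point was not tested. The filled orange points lie to the right of 0 at E16.5, from 3.14 to 7.17, and to the left of 0 at P0, from -2.44 to -1.17.

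Red cells of E16.5, other libraries than those above, gave the same 6 calls with 2 libraries a group. *Dlx2* had 23.3 and 7.15 CPM in red control-MADM cells and 93.5 and 82.6 in red cKO-*Eed*-MADM cells (log2 2.51, SE 0.63, adjusted p = 0.0254). *Gad1* had 2.86 and 0 CPM against 34.4 and 49.2 (4.68, SE 1.05, adjusted p = 0.0112), and *Dlx5* 7.64 and 2.80 against 62.7 and 33.3 (3.16, SE 0.65, adjusted p = 0.00568). *Dlx1*, *Dlx6* and *Gad2* were higher by 2.96, 3.84 and 3.93, while 3.93% of 13287 genes were called and 3.02% were higher. The calls rest on few libraries: without control-MADM red replicate 2 none of the 6 passed, without control-MADM red replicate 1 3 did, and without either cKO-*Eed*-MADM library 2 did, each time with the remaining library assumed to vary like the others. *Gsx2* (2.36 and 1.79 CPM) and *Nkx2-1* (3.34 and 3.40 CPM) were read in both red cKO-*Eed*-MADM libraries and in neither control library, at least 5.84-fold and 9.49-fold higher.

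At P0 the order of the groups was the opposite for *Dlx1*, *Dlx2*, *Dlx5* and *Gad2*. Of the 8 members that passed the filter, 5 were called lower in green cKO-*Eed*-MADM than in green control-MADM cells (24.2% of the 14161 genes tested were called, 10% lower). *Dlx1* had 105, 184, 211, 179 and 247 CPM in control-MADM and 31.3, 19.4, 50.7 and 42.7 in cKO-*Eed*-MADM (log2 -2.36, SE 0.25, adjusted p = 1.82e-07). *Dlx2* had 144, 222, 271, 289 and 349 CPM against 50.9, 30.0, 54.6 and 53.1 (-2.44, SE 0.25, adjusted p = 1.28e-07). In both genes all 4 cKO-*Eed*-MADM libraries lie below all 5 of control-MADM.

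*Dlx5* had 38.8, 76.6, 107, 140 and 127 CPM in control-MADM and 40.2, 26.4, 23.1 and 25.4 in cKO-*Eed*-MADM (-1.78, SE 0.28, adjusted p = 4.43e-05), with 1 library of each group crossing over. *Gsx2* had 9.74, 20.6, 21.6, 22.6 and 13.48 CPM against 8.85, 0.353, 4.66 and 8.46 (-1.64, SE 0.48, adjusted p = 0.0142), without overlap. *Gad2* had 31.2, 73.7, 72.9, 124 and 77.4 CPM against 40.2, 28.9, 44.5 and 22.2 (-1.17, SE 0.28, adjusted p = 0.0034). The lowest control library of *Gad2*, replicate 1, lies within the range of cKO-*Eed*-MADM.

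Their partners were not called. *Dlx6* had 12.4, 25.6, 27.3, 25.9 and 40.6 CPM in control-MADM and 21.4, 21.5, 21.0 and 20.3 in cKO-*Eed*-MADM (-0.33, SE 0.29, adjusted p = 0.44). *Gad1* had 27.7, 38.4, 61.4, 42.5 and 75.9 CPM against 52.2, 36.7, 49.2 and 39.8 (-0.16, SE 0.25, adjusted p = 0.697). In both, the cKO-*Eed*-MADM libraries lie within the control range.

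*Lhx6* and *Nkx2-1*, the genes of the medial ganglionic eminence, had higher values in cKO-*Eed*-MADM. *Lhx6* had 12.7, 1.43, 0.666, 1.44 and 1.33 CPM in control-MADM and 4.61, 18.7, 20.8 and 8.46 in cKO-*Eed*-MADM. The difference did not pass the test (1.88, SE 0.76, adjusted p = 0.0727). It passed with DESeq2 (adjusted p = 0.0376) and without control-MADM green replicate 1, the single high control library (3.41, adjusted p = 0.00151). *Nkx2-1* was under the filter, with 0.333 CPM in 1 control library and 0 in the other 4 against 1.11, 1.76, 2.33 and 6.66 in cKO-*Eed*-MADM, so that all cKO-*Eed*-MADM libraries lie above all control libraries at levels of a few reads. A fit without the filter gave 4.96 (SE 1.23, adjusted p = 0.00374).

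Green *Eed*-MADM cells at P0 were close to control-MADM with somewhat lower values. *Dlx2* went from 98.6 to 215 CPM over 9 libraries, with a median of 154, and was called lower than in control-MADM (-0.73, SE 0.18, adjusted p = 0.0408), where 1.75% of genes were called and 0.233% were lower. That call was lost without control-MADM green replicate 4, 5 or 6, and without control-MADM green replicate 1 *Dlx1* and *Dlx5* were called too. *Dlx1* went from 92.3 to 162 CPM with a median of 131 (-0.58, SE 0.18, adjusted p = 0.107), *Gad1* from 32.3 to 66.8 with a median of 42.9, and *Gad2* from 47.5 to 94.8 with a median of 69.6, all overlapping with control-MADM. *Nkx2-1*, at 0 to 2.34 CPM with a median of 1.17, lay above all control libraries in 7 of 9.

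Against these *Eed*-MADM cells, 4 members were called lower in cKO-*Eed*-MADM, while 19.5% of genes were called and 8.26% were lower. They were *Dlx1* (-1.78, SE 0.23, adjusted p = 4.98e-06), *Dlx2* (-1.72, SE 0.23), *Dlx5* (-1.14, SE 0.25) and *Gad2* (-1.002, SE 0.26, adjusted p = 0.00705). *Dlx1*, *Dlx2* and *Gad2* do not overlap between these groups, and the share of all genes that do not was not counted. *Gsx2* (-0.83, SE 0.43, adjusted p = 0.191), *Dlx6* (0.20, SE 0.26), *Gad1* (-0.04, SE 0.22) and *Lhx6* (1.60, SE 0.64, adjusted p = 0.082) were not called.

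Between E16.5 and P0, 7 of the 8 tested members rose in green control-MADM cells and 7 rose in *Eed*-MADM, and 14.1% and 21% of the 13926 genes tested were called there (8.31% and 12.1% higher). In control-MADM the rises were 4.22 for *Dlx1* (SE 0.52), 5.01 for *Dlx2* (SE 0.53), 5.55 for *Dlx5* (SE 0.53), 7.40 for *Dlx6* (SE 0.97), 5.36 for *Gad1* (SE 0.65) and 4.99 for *Gad2* (SE 0.57). *Gsx2*, without a read at E16.5, rose to a mean of 17.6 CPM, at least 87.4-fold higher than the 3 reads over the group that a count of 0 allows. *Lhx6* was not called in either (1.26, SE 1.08, and 1.55, SE 0.83). In cKO-*Eed*-MADM no member was called higher. *Dlx1*, *Dlx2* and *Dlx5* were called lower, by 1.26 (SE 0.41), 1.47 (SE 0.40) and 1.02 (SE 0.37), where 17.7% of genes were called and 8.14% were lower. Of those 3 calls only 1 was left without cKO-*Eed*-MADM green replicate 2 or 4 of P0, or without replicate 2 or 4 of E16.5. In green cKO-*Eed*-MADM cells the mean of *Lhx6* was higher in value at P0. It was 0.768 CPM per kilobase of exon (SD 0.469) at E16.5 and 2.73 (SD 1.63) at P0. The means of *Gsx2* (2.17 and 3.35) and *Nkx2-1* (0.623 and 1.04) were higher by less than their spread. Those of *Dlx6*, *Gad1* and *Gad2* were lower in value.

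Between E13.5 and E16.5 calls went in different directions in the 3 paradigms. In cKO-*Eed*-MADM 6 members rose (17.5% called, 9.94% higher), by 2.84 for *Dlx1* (SE 0.44), 2.49 for *Dlx2* (SE 0.42), 2.05 for *Dlx5* (SE 0.39), 2.28 for *Dlx6* (SE 0.58), 3.50 for *Gad1* (SE 0.51) and 2.84 for *Gad2* (SE 0.45). In *Eed*-MADM 5 fell (19.3% called, 9.28% lower), *Dlx1* by 2.19, *Dlx2* by 2.04, *Dlx5* by 1.91, *Dlx6* by 1.95 and *Gad2* by 2.81. The value of *Dlx6* turned to 1.59 (adjusted p = 0.386) without *Eed*-MADM green replicate 2 of E13.5 and was -2.90 without replicate 6. In control-MADM 2 fell (15.8% called, 7.32% lower), *Dlx2* by 1.84 (SE 0.55) and *Dlx5* by 1.99 (SE 0.58). The falls rest on few E13.5 libraries: 1 of the 5 was left without *Eed*-MADM green replicate 2 of E13.5, and none of the 2 without control-MADM green replicate 1 of E13.5 or replicate 3 of E16.5.

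The change of the difference itself was tested in the same fit. From E16.5 to P0 the difference of cKO-*Eed*-MADM from control-MADM became smaller or turned for 7 of 8 members, where 1.17% of genes were called and 0.768% were lower. The change was -5.48 for *Dlx1* (SE 0.65, adjusted p = 8.17e-07), -6.48 for *Dlx2* (SE 0.65), -6.57 for *Dlx5* (SE 0.64), -7.49 for *Dlx6* (SE 1.11), -5.59 for *Gad1* (SE 0.77), -5.45 for *Gad2* (SE 0.69) and -8.87 for *Gsx2* (SE 2.13, adjusted p = 0.0243). The call of *Gsx2*, which had no read in control-MADM of E16.5 so that its fitted size is no measured fold, was lost without any of the 3 control-MADM libraries of E16.5 or without cKO-*Eed*-MADM replicate 2 of E16.5. *Lhx6* gave 0.58 (SE 1.45, adjusted p = 0.934). From E13.5 to E16.5 the difference grew for 4 members (4.3% called, 2.36% higher), *Dlx2* by 4.32 (SE 0.68), *Dlx5* by 4.05 (SE 0.69), *Dlx6* by 5.13 (SE 1.35) and *Gad2* by 3.91 (SE 0.78), of which *Dlx6* and *Gad2* were lost without control-MADM green replicate 1 of E13.5, and *Dlx6* also without control-MADM green replicate 1 or 3 of E16.5. *Dlx1* (2.36, SE 0.73, adjusted p = 0.0572) and *Gad1* (2.64, SE 1.20, adjusted p = 0.249) did not pass. Each age comes from its own animals and collections, which cannot be told apart from age.

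**Figure D3:**
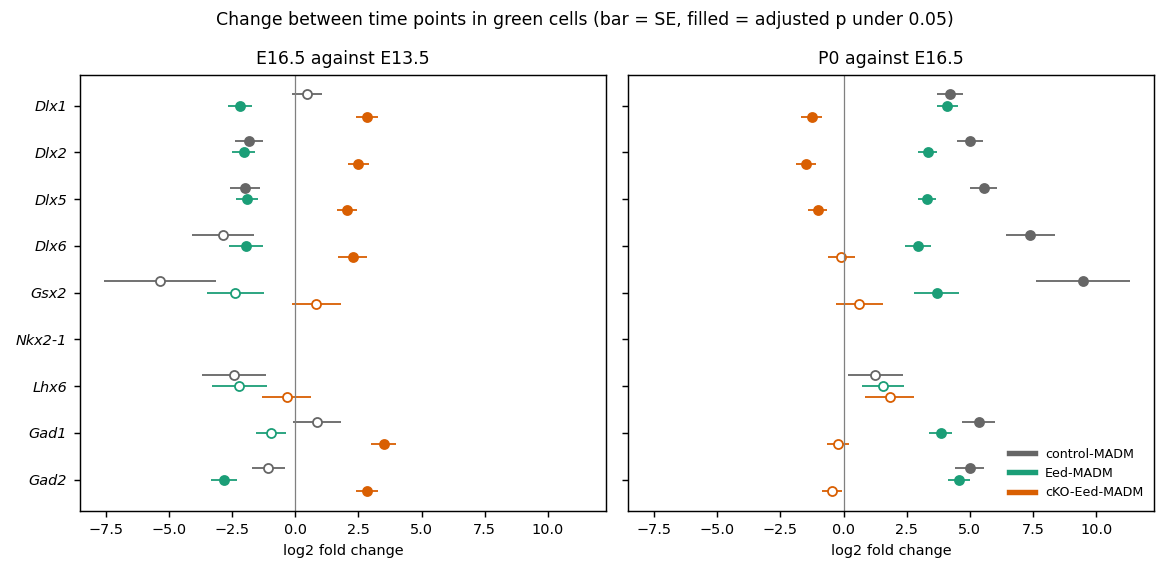
Log2 fold change (horizontal axis) of each gene between successive time points in green cells of each paradigm, with SE bars and filled points for an adjusted p under 0.05. From E16.5 to P0 the filled control-MADM and *Eed*-MADM points lie between 2.94 and 9.50, and the filled cKO-*Eed*-MADM points between -1.47 and -1.02.

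Yellow and red cells of P0 gave a mixed picture that turns on the library that stood apart. *Dlx1* had 74.7 and 203 CPM in yellow and 110 and 270 in red control-MADM cells. In cKO-*Eed*-MADM it had 15.9 CPM in the yellow library, 18.3 in red replicate 2, and 545 in the library labelled red replicate 1. With that library *Gad1* was the only member called, higher in cKO-*Eed*-MADM (1.37, SE 0.36, adjusted p = 0.0123), where 13% of 14169 genes were called and 6.45% were higher.

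Without it *Dlx1* was called lower (-3.25, SE 0.45, adjusted p = 2.2e-05), *Dlx2* was called lower (-1.57, SE 0.36, adjusted p = 0.00386), and *Gad1* was not called (0.79, SE 0.33, adjusted p = 0.103). *Dlx5*, *Dlx6*, *Lhx6* and *Gad2* changed sign, from 0.81 to -0.47, from 0.25 to -1.04, from 0.11 to -1.50 and from 0.03 to -0.79, and none of these values passed the test with or without the library. Without red replicate 2 of cKO-*Eed*-MADM, its red cells are the library labelled red replicate 1 alone. Calls of that fit need not be these genes or this direction and say nothing on the lower values. The call of *Gad1* made with all libraries was lost without control-MADM red replicate 1. The library that stood apart also had 142 CPM of *Lhx6* and 150 of *Sst*, and a summed level of 2037 CPM over 23 genes of cortical interneurons, against 664 to 1324 in the other 10 yellow and red libraries of P0. Control-MADM red libraries had 27.0 and 70.5 CPM of *Lhx6*, the next highest of these. The part of cells other than the labelled ones in these libraries was not tested.

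In *Eed*-MADM at P0 the green, yellow and red cells could be compared within one tissue, and no member was called between them (0.395% of genes were). *Dlx1* had 169 and 162 CPM in yellow *Eed*+/- and 167 and 166 in red *Eed*+/+ cells, within the range of control-MADM. The highest green *Eed*-/- library had about the level of the lowest of these, 162 CPM, and the other green libraries lay below. The difference did not pass the test (-0.43, SE 0.41, adjusted p = 1). *Gad1* had 38.9 and 47.5 CPM in yellow and 36.5 and 38.2 in red cells. Against yellow and red control-MADM cells no member was called either (0.212% of genes were), with *Lhx6* lower in value (-2.61, SE 1.01, adjusted p = 0.21). Without control-MADM yellow replicate 1 that count was 2.

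**Figure D4:**
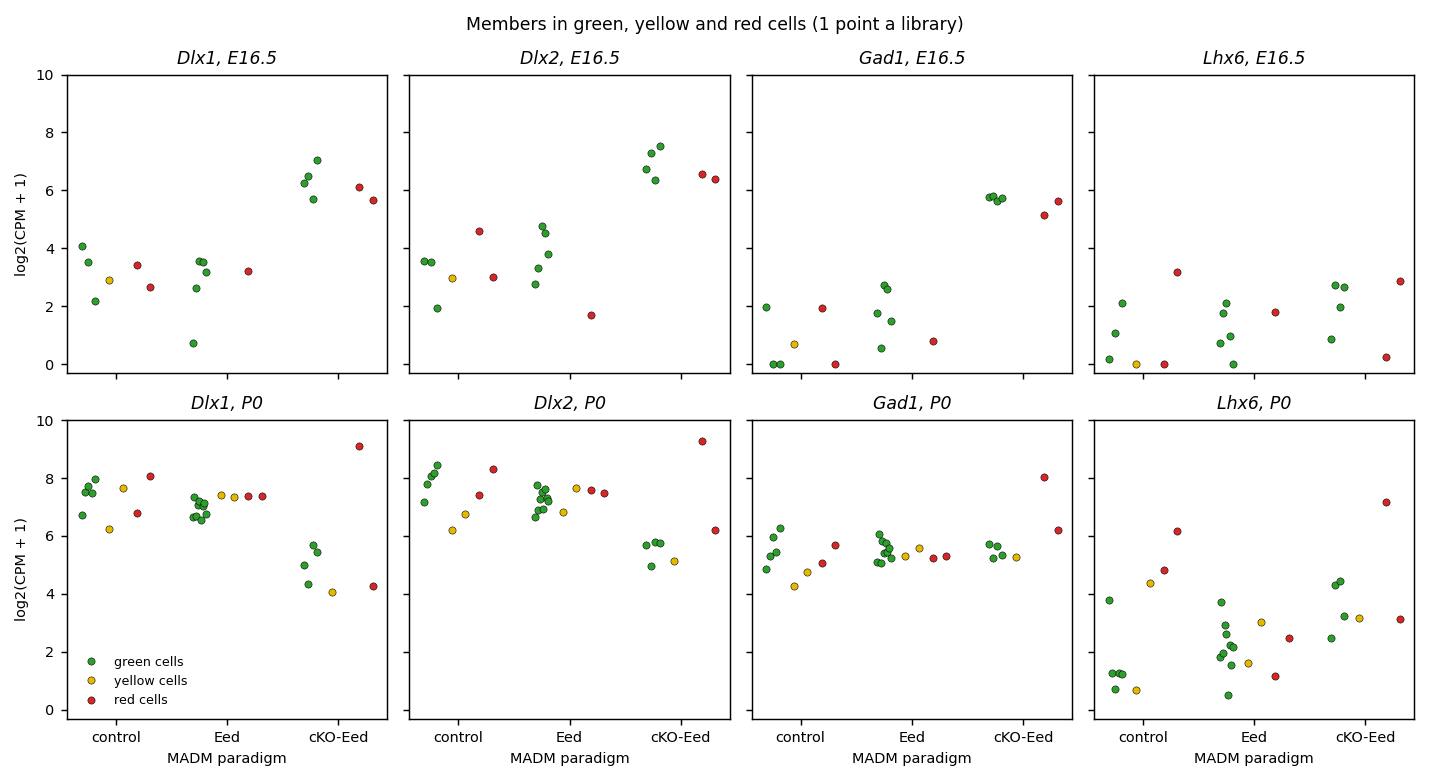
Levels of *Dlx1*, *Dlx2*, *Gad1* and *Lhx6* as log2(CPM + 1) on the vertical axis, by paradigm and cell color at E16.5 (top) and P0 (bottom); 1 point is 1 library. At E16.5 red cKO-*Eed*-MADM points sit with the green ones, and at P0 the library labelled red replicate 1 of cKO-*Eed*-MADM sits at the top of each panel while replicate 2 sits with the green points for *Dlx1*.

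Per length *Dlx2*, *Dlx5* and *Dlx1* came first both in green control-MADM cells of P0 and in green cKO-*Eed*-MADM cells of E16.5. In green control-MADM cells of P0, *Dlx2* was first with 89.3 CPM per 1000 exonic bases (SD 26.8, n = 5), followed by *Dlx5* with 43.1 (SD 17.9) and *Dlx1* with 34.3 (SD 9.74). *Dlx5* and *Dlx1* differ by less than their spread. *Gad2* (12.9, SD 5.59), *Dlx6* (11.1, SD 4.21) and *Gsx2* (10.6, SD 3.41) follow, each within the spread of the next, then *Gad1* (6.44, SD 2.52), *Lhx6* (0.732, SD 1.07) and *Nkx2-1* (0.0234, SD 0.0524). In green cKO-*Eed*-MADM cells of E16.5 the first places were *Dlx2* (46.2, SD 16.3, n = 4), *Dlx5* (26.0, SD 10.8), *Dlx1* (16.1, SD 6.39), *Dlx6* (9.50, SD 3.16), *Gad2* (8.01, SD 2.86) and *Gad1* (6.87, SD 0.42), with *Gsx2* (2.17, SD 1.87), *Lhx6* (0.768, SD 0.469) and *Nkx2-1* (0.623, SD 0.587) last. In green control-MADM cells of E13.5 *Nkx2-1* and *Lhx6* came after *Dlx2* and *Dlx5*, at 2.05 (SD 0.90, n = 2) and 1.64 (SD 1.27), and *Lhx6*, but not *Nkx2-1*, lay within the SD of *Dlx1* at 1.28 (SD 0.67). At E12.5 the order differed in part, with *Nkx2-1* (17.2, SD 12.6, n = 4) close behind *Dlx5* (17.7, SD 10.996) in green cKO-*Eed*-MADM cells and *Gad2* (11.3, SD 20.8, n = 8) next after *Dlx2* (19.0, SD 15.3) in green *Eed*-MADM cells, neighbours that differ by less than their spread.

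Across the 32 groups of age, paradigm and color, the mean levels of *Dlx1*, *Dlx2*, *Dlx5*, *Dlx6*, *Gad1* and *Gad2* on the log2(CPM + 1) scale correlated with each other with Pearson's r of 0.86 to 0.95, a description in which groups of 1 library count like others. Without the library labelled red replicate 1 of cKO-*Eed*-MADM at P0 the range was 0.82 to 0.95. *Nkx2-1* stood outside, with r from -0.09 (*Dlx1*) to 0.40 (*Lhx6*), and *Lhx6* had r from 0.49 (*Gsx2*) to 0.64 (*Dlx2*) with the members other than *Nkx2-1* (without that library -0.07 to 0.47 and 0.49 to 0.61). Among 16092 other genes, the most alike were *Sp9* for *Dlx1* (r = 0.93), *Dlx2* (0.92) and *Dlx5* (0.92), and *Nrxn3* for *Dlx6* (0.92), *Gad1* (0.94) and *Gad2* (0.94). *Sp9* encodes a zinc finger factor of the ganglionic eminences and *Nrxn3* a synaptic neurexin. *Dlx6os1*, *Gm14204* and *Pdgfra* held the other leading places of these 6 genes. *Lhx6* was most like *Maf* (0.80) and *Gng11* (0.77), *Gsx2* like *Acadl* (0.84), *Chrdl1* (0.83) and *Pou3f4* (0.82), and *Nkx2-1* like *Pdlim1* (0.85), *Gng5* (0.84) and *Tcf7l2* (0.84). Without that library *Sp9* led for *Dlx1* (0.90), *Dlx2* (0.91), *Dlx5* (0.91) and *Gad1* (0.93), *Nrxn3* for *Dlx6* (0.92) and *Gad2* (0.93), *Gng11* for *Lhx6* (0.78), *Acadl* for *Gsx2* (0.83) and *Pdlim1* for *Nkx2-1* (0.85).

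Other genes of the subpallium were in part called as well. Of 21 further patterning genes of the subpallium, 16 were tested at E16.5 in green cKO-*Eed*-MADM against control-MADM cells, and 7 were higher and none lower (over all genes 6.16% were higher and 2.42% lower; median log2 difference 2.65, or 2.65 with genes that had no read in control-MADM at their bound, against 0.00103 over all genes tested). *Sp9* rose from 3.71 ± 3.19 CPM (SD, n = 3) in control-MADM to 133 ± 68.6 (SD, n = 4), a log2 difference of 5.21 (SE 0.57, adjusted p = 1.01e-05). *Isl1*, a gene of striatal and motor neurons among others, had no read in control-MADM and 70.1 ± 30.5 CPM (SD, n = 4) in cKO-*Eed*-MADM (adjusted p = 1.46e-05). At P0, 8 of 16 were higher and 4 lower (over all genes 14.2% were higher and 10% lower; median 0.79, against -0.0078 over all genes). *Sp9* had turned like *Dlx1* and *Dlx2*, with 132 ± 38.1 CPM (SD, n = 5) in control-MADM and 46.3 ± 9.65 (SD, n = 4) in cKO-*Eed*-MADM, and *Sp8* was lower too. *Helt*, which also marks regions outside the telencephalon, was lower as well. It is counted in this list and not among the selectors from outside the telencephalon below. *Meis2*, a homeobox gene of the lateral ganglionic eminence and of other brain regions, was lower (-1.80, SE 0.15, adjusted p = 5.43e-09). *Six3* (6.89, SE 0.71), *Ebf1* (4.61, SE 0.53) and *Otx2* (6.61, SE 0.90), which also mark regions outside the telencephalon, were higher.

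The next group marks migrating or mature cortical interneurons. Of 23 such genes, 16 were tested at E16.5, with 4 higher and 1 lower (median 1.09), and 21 at P0, with 8 higher and 3 lower (median 0.76). These counts and those of the lists that follow stand against the same shares over all genes, 6.16% higher and 2.42% lower at E16.5 and 14.2% higher and 10% lower at P0. Listed genes at or near 0 in control-MADM passed the filter through the libraries in which they are high. The counts of all lists therefore describe their genes and test nothing. At E16.5 *Prox1* (3.67, SE 0.46, adjusted p = 3.35e-05) and *Nr2f2* (3.20, SE 0.46, adjusted p = 0.000122), which many other cells read as well, were among the higher ones, and *Nos1* was lower. At P0 *Nos1* (-2.49, SE 0.26) and *Cck* were among the lower ones, and *Ackr3* (2.54, SE 0.40) and *Tac1* (5.07, SE 0.92) were higher. *Pvalb* and *Vip*, which appear in interneurons later, had no read in either group at E16.5. *Sst* lay between 0 and 8.62 CPM in the green libraries of control-MADM and cKO-*Eed*-MADM at E16.5.

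The next list holds genes that transport, break down or respond to GABA. Of 9 genes, 8 were tested at each age, and 5 were higher and none lower at E16.5 (median 2.08, or 2.08 at the bound) and 5 higher and none lower at P0 (median 1.20). *Slc32a1*, the vesicular transporter that GABAergic neurons need, had no read in the 3 control-MADM libraries of E16.5 and 15.6 ± 6.74 CPM (SD, n = 4) in cKO-*Eed*-MADM (adjusted p = 0.000225). At P0 it had 5.44 ± 2.75 (SD, n = 5) and 13.4 ± 6.52 CPM (SD, n = 4) and was not called. *Slc6a11* (1.34, SE 0.24), *Gphn* (1.07, SE 0.22), *Slc12a5* (2.34, SE 0.51) and *Abat* (1.38, SE 0.31) were among those called higher at P0.

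The last group holds transcription factors that select GABAergic fate in midbrain, hindbrain or spinal cord. Of 16 such genes, 9 of the 10 tested at E16.5 and all 9 tested at P0 were higher in green cKO-*Eed*-MADM cells (medians 7.08 and 5.62, or 5.68 and 5.62 at the bound). Of the tested genes, 5 at E16.5 and 1 at P0 had no read in control-MADM and passed the filter through the other groups. The summed level of the list was 1.41 to 6.05 CPM in control-MADM, 16.49 to 33.8 in *Eed*-MADM and 426 to 533 in cKO-*Eed*-MADM at E16.5. At P0 it was 5.12 to 11.49, 26.2 to 62.8 and 279 to 439 CPM, so the 3 groups kept their order and did not overlap at either age. *Tal1* had no read in control-MADM and 170 ± 23.5 CPM (SD, n = 4) in cKO-*Eed*-MADM at E16.5. *Pax2* likewise had no read and 41.6 ± 2.49 CPM (SD, n = 4). At P0 *Tal1* (9.42, SE 0.45), *Gata2* (8.75, SE 0.76) and *Lbx1* (6.55, SE 0.81) were among those called, with means of 89.4, 25.8 and 15.3 CPM in cKO-*Eed*-MADM. *Gata3* had no read in control-MADM and 24.5 ± 6.24 CPM (SD, n = 4). *Lhx5* was higher by 5.83 (SE 0.59) at E16.5. *Lhx1* was not called at E16.5 (4.19, SE 1.82, adjusted p = 0.197). *Dlx3* and *Dlx4*, the *Dlx* genes of tissues outside the brain, were too low to test, at 0 in all control-MADM and *Eed*-MADM green libraries of E16.5 and summing to 0.196 to 8.94 CPM in cKO-*Eed*-MADM. *Dlx6os1*, the noncoding gene that runs through *Dlx6*, was higher at E16.5 (3.67) and lower at P0 (-2.49, SE 0.36, adjusted p = 1.95e-05), and *Dlx1as* was not called at P0 (-1.13, SE 0.68, adjusted p = 0.245).

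Markers of the labelled lineage and of other cells are given beside these results. The 16 genes of pallial glutamatergic cells summed to 5930 to 6121 CPM in control-MADM and 2295 to 3010 in cKO-*Eed*-MADM at E16.5, with 8 lower and 1 higher of 16 tested, and to 2684 to 3828 and 986 to 1102 at P0, with 11 lower and none higher of 15 tested. *Emx1* (-1.69, SE 0.18) and *Neurog2* (-2.66, SE 0.29) were lower at E16.5, and *Neurod2* (-2.67, SE 0.20) and *Lhx2* (-1.86, SE 0.15) at P0. Of 6 Cajal-Retzius genes, among them *Calb2* of the interneuron list and *Lhx1* and *Lhx5* of the GABAergic selectors, 3 were higher at E16.5 and 5 at P0, with sums of 20.3 to 60.9 and 206 to 497 CPM at E16.5. *Reln* (4.68, SE 0.77), *Trp73* (4.74, SE 0.79) and *Ebf3* (4.36, SE 0.79) were among those called at P0.

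Microglial genes, 10 in all, summed to 4.38 to 10.5 CPM in control-MADM and 15.9 to 66.4 in cKO-*Eed*-MADM at E16.5 (2 of 6 tested higher), and to 8.32 to 59.1 and 203 to 485 at P0 (8 of 9 higher, *Csf1r* by 4.28, SE 0.73). Meningeal genes, 8 in all, summed to 5.36 to 11.2 and 51.4 to 70.9 CPM at E16.5 (3 of 5 higher) and to 53.3 to 124 and 129 to 368 at P0 (6 of 7 higher, *Dcn* by 4.70, SE 0.67). Genes of oligodendrocyte precursors, 7 in all, summed to 9.59 to 16.53 and 46.4 to 295 CPM at E16.5 (2 of 5 higher, *Olig1* by 4.37, SE 0.88) and to 840 to 2066 and 626 to 1804 at P0, where none of 7 was called. *Pdgfra*, called higher at E16.5 (6.80, SE 1.68, adjusted p = 0.0139), is counted in both the precursor and the meningeal list. Of 9 endothelial genes 1 passed the filter at each age and was not called. Of 8 red blood cell genes 1 of 5 was higher at E16.5 (*Hba-a2* by 5.06, SE 1.48) and none of 5 was called at P0. Of 6 choroid plexus genes 1 of 4 was higher at E16.5 and 1 of 2 at P0 (*Otx2*, also in the subpallial list). The part of these cells in the levels of the members was not tested.

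**Figure D5:**
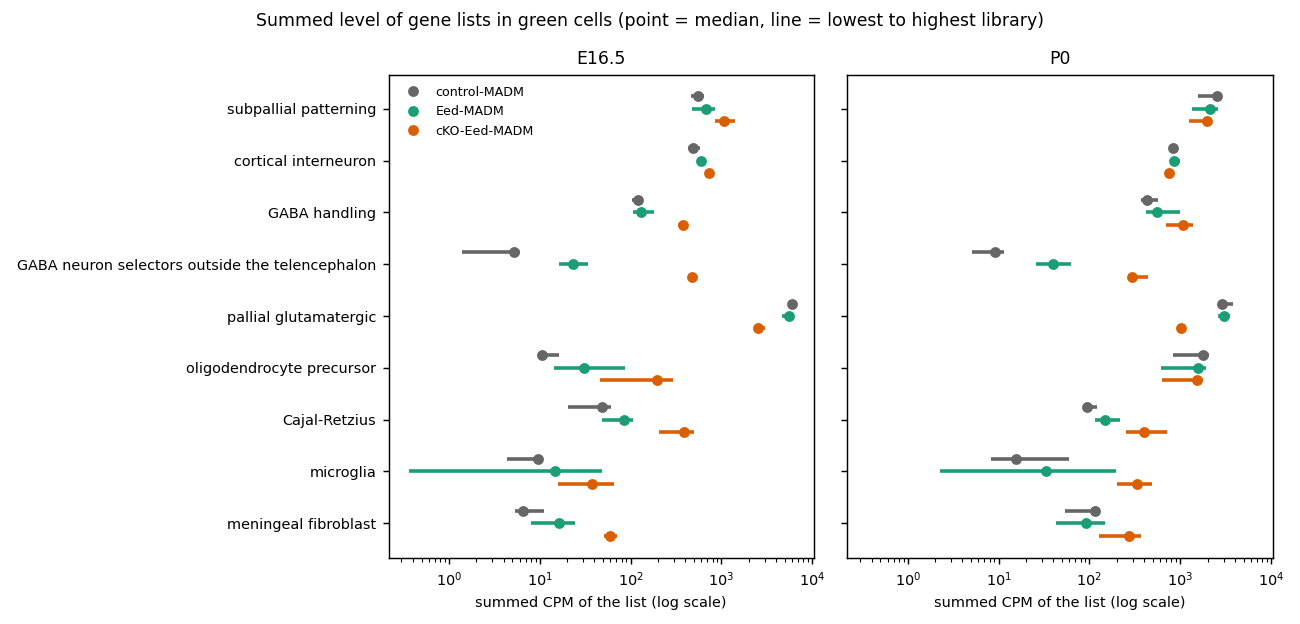
Summed CPM of each gene list (horizontal axis, log scale) in green cells at E16.5 and P0; points are the median library of a paradigm and lines run from the lowest to the highest library. The GABAergic selectors from outside the telencephalon separate the 3 paradigms at both ages, and the pallial list is lowest in cKO-*Eed*-MADM at both.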

How the data were processed

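Counts of reads per gene were deposited by the authors, 1 table per library, made per the labels with STAR against GRCm38 (mm10); their annotation release was not given in the sources used here. The unstranded column of whole-number counts was used. Libraries with at least 1000000 uniquely aligned reads that were at least 60% of all reads were kept, and the others were left out. Reads on genes (865832 to 7249098 per library) limit the precision, and a count of 0 allows up to 3 reads. Gene names and coordinates came from GENCODE M21, which matched 53274 of 53379 identifiers. Reads that fell on no single gene (13.4% to 40.4% of uniquely aligned reads) stayed out of library sizes.

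Groups came from the labels. Genes with a mean count above 1 (E12.5) or 10 (later) entered edgeR 4.0.16 (R 4.3.3), with TMM factors and the quasi-likelihood test, 1 fit over green libraries of an age, 1 over all colors of an age, and 1 over green libraries of E13.5 to P0. P-values were adjusted over all genes tested by the Benjamini-Hochberg method, with a threshold of 0.05, and the SE is the log2 fold change divided by the root of F. Nothing says that samples share no animal, so p-values measure the spread between these samples. DESeq2 1.42.0, other filters, scalings, thresholds and strand columns, and each left-out library were tried. Steps across many genes were tested on simulated data. Of each list, up to 4 genes with the lowest adjusted p in green cKO-*Eed*-MADM against control-MADM at P0 and up to 2 more at E16.5 were to be named, with the 3 genes most like each member; others were named after their values were seen, and some genes that this rule names are not reported here. The members, lists and tests were chosen with earlier results of these data known.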

Additional observations from a re-analysis of the deposited data

Results flagged for a closer look

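In the 11 groups of 4 to 10 libraries, the highest or lowest library was set against the rest by Dixon's test, gene by gene. Of 98 such tests 17 had a library that stood out, where chance gives about 1 in 20, and these came from 8 libraries, so they are not independent. Most of them belong to E12.5. *Eed*-MADM yellow replicate 4 of E12.5 was high for *Dlx1* (107.1 CPM), *Dlx5* (72.1 CPM), *Dlx6* (27.9 CPM), *Lhx6* (20.9 CPM), *Gad1* (59.0 CPM) and *Gad2* (170.7 CPM). *Eed*-MADM green replicate 9 was high for *Dlx6* (88.7 CPM), *Gad1* (76.4 CPM) and *Gad2* (362.2 CPM), and green replicate 6 for *Gsx2* (32.5 CPM) and *Lhx6* (31.5 CPM). Control-MADM yellow replicate 3 of E12.5 was high for *Dlx1* (188.0 CPM) and *Dlx2* (262.4 CPM).

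At the later ages, *Dlx2* was high in cKO-*Eed*-MADM green replicate 1 of E13.5 (46.4 CPM) and low in green replicate 2 of P0 (30.0 CPM). In green control-MADM cells of P0, *Lhx6* was high in replicate 1 (12.7 CPM), and *Nkx2-1* had reads in replicate 4 alone (0.333 CPM).

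The difference of green cKO-*Eed*-MADM from control-MADM cells changed with age by the interaction test of edgeR. From E16.5 to P0 the change was -5.48 for *Dlx1*, -6.48 for *Dlx2*, -6.57 for *Dlx5*, -7.49 for *Dlx6*, -8.87 for *Gsx2*, -5.59 for *Gad1* and -5.45 for *Gad2*. From E13.5 to E16.5 it was 4.32 for *Dlx2*, 4.05 for *Dlx5*, 5.13 for *Dlx6* and 3.91 for *Gad2*. No cause was tested for any of these values.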

How the results depend on the processing

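*Nkx2-1* and *Gsx2* rest on few reads. Libraries of E12.5 had both the fewest reads and the widest spread (median biological coefficient of variation 0.63 in green cells, 0.273 to 0.365 later), and the part of each in the lack of calls there was not tested. Alternatives without 1 library for the correlations were chosen after seeing the data. Of 3148 gene values under an alternative, 3047 kept their side of the threshold, 62 lost a call, 38 gained one and 1 called value changed sign: *Dlx6* in *Eed*-MADM from E13.5 to E16.5 was 1.59 (adjusted p = 0.386) without E13.5 *Eed*-MADM green replicate 2, and -2.90 without replicate 6. Replicate numbers are running numbers. Same-numbered green libraries of different paradigms deviated together (r over 0.1) in 3 of 11 pairs at E12.5, 0 of 3 at E13.5, 2 of 10 at E16.5 and 3 of 12 at P0, so the numbers were not used as pairs. Colors of the same paradigm were not checked in this way. Their libraries may share animals and were tested as unpaired. With the replicate number as a block the members called numbered 0 for *Eed*-MADM against control-MADM in green cells of P0, 0 for cKO-*Eed*-MADM against control-MADM in yellow and red cells of P0, and 1 for P0 against E16.5 in cKO-*Eed*-MADM. Over all genes the block gave 101 of 14161, 895 of 14169 and 2273 of 13926 calls, in the same order. DESeq2 called 1 member in *Eed*-MADM against control-MADM (green, E16.5) and 1 in green against other *Eed*-MADM cells of E13.5. Over all genes it called 231 of 13359 and 54 of 13382 there. Without the filter on low counts, counts were 2 for *Eed*-MADM against control-MADM (green, E16.5), 4 for green against other *Eed*-MADM cells of E12.5, 2 for *Eed*-MADM against control-MADM (yellow and red, E12.5), 2 for green against other *Eed*-MADM cells of E13.5, and 4 for E16.5 against E13.5 in control-MADM. Over all genes these fits called 272 of 29304, 157 of 36318, 203 of 36318, 75 of 32103 and 2268 of 36363, in the same order. With libraries of any depth *Eed*-MADM against control-MADM gave 1 at E13.5 and 2 at P0 (green), and the counts of strand column 4 gave 0 at P0. Over all genes 415 of 11807, 315 of 13899 and 198 of 13567 were called, in the same order. The cause was not tested. With 1 library left out, the counts ranged from 0 to 1 for *Eed*-MADM against control-MADM (green) at E16.5 and 0 to 3 at P0, from 0 to 3 for red cells of E16.5, from 0 to 2 for cKO-*Eed*-MADM and for *Eed*-MADM against control-MADM in yellow and red cells of P0, from 0 to 2 for E16.5 against E13.5 in control-MADM and 1 to 6 in *Eed*-MADM, from 1 to 3 for P0 against E16.5 in cKO-*Eed*-MADM, and from 2 to 5 and 6 to 7 for the changes of the difference from E13.5 to E16.5 and from E16.5 to P0. A group left with 1 library is assumed to vary like the others. Counts over all genes are not given for the left-out libraries.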
